A study of Bos taurus with 40 samples.

Results

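The subject of this account is the set of nuclear genes that took the most sequencing reads in muscle of young cattle: 82 of 24538 nuclear gene entries (24616 gene entries with the mitochondrially encoded ones). A gene was a member when its level, in counts per 1000000 gene counts of the library (CPM), averaged 1000 or more over all 40 libraries. The 78 mitochondrially encoded entries were left out, and so were 4 entries set apart as collagens and SPARC, whose means of 149 to 439 CPM lay below the limit in any case. The members were thus chosen by their mean levels, so what follows on rank and share is description without a test. The rule used no difference between groups of animals, but a gene near the limit can pass it through the groups where it is high. ENSBTAG00000000434, ENSBTAG00000013162 and ENSBTAG00000008394 did so. ENSBTAG00000032436 and ENSBTAG00000014930 did too, with means of 1204 and 1225 CPM in restricted bulls of period 1 and 751 and 796 CPM in period 2. The differences of all these members between groups are given as description, also where they enter a count.

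Skeletal muscle fills most of its messenger RNA with a small number of transcripts, which encode filament proteins of the contractile apparatus, enzymes that break down sugar or buffer ATP, and proteins that release and take back calcium. Slow and fast fibres use different versions of many of these proteins, and feeding and growth are known to alter the balance between protein building and breakdown in the fibre. In cattle, a limited feed allowance slows growth, and animals returned to full feeding grow faster for a time than continuously fed ones, which is called compensatory growth.

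The animals were Holstein-Friesian bulls, a dairy breed, and muscle was taken by biopsy, with no muscle named in the labels. Control bulls (10) had feed freely available throughout. Restricted bulls (10) received a limited allowance for 125 days (period 1), aimed at a gain of 0.6 kg daily, and were fed freely for the next 55 days (period 2). Both groups ate 70% concentrate and 30% grass silage, and biopsies were taken on day 120 of period 1 and day 15 of period 2, which gives 4 groups of 10 libraries. The files name genes by Ensembl identifiers that no source used here pairs with gene names, so the members are given by identifier, without roles, and the muscle label could not be checked against marker genes. In bulk tissue, fewer fibres of a type and less RNA per fibre cannot be told apart.

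Gene counts were 20.8 M to 32.97 M per library (M, 1000000 counts; median 25.6 M), and all 82 members were among the 12753 genes tested. The lowest count of any member in any library was 7025, for which counting error alone gives a coefficient of variation (CV, SD over mean) of 1.19%. Counting error is thus a small part of the spread between libraries described below. With 1 library per bull and time, differences between animals and between library preparations cannot be told apart. In 7 libraries, 10.0% to 11.2% of reads fell outside genes, against 13.3% to 18.7% in the other 33. They were control bull 6 of period 1, control bulls 2, 3 and 8 of period 2, restricted bulls 1 and 9 of period 1 and restricted bull 10 of period 2. The members stood higher in these 7 libraries, with a median log2 difference of 0.29 (range -1.03 to 1.02) against -0.05 over all tested genes. The part of this difference in the results below was not tested, and the counts of called members in each comparison are also given without the 7 libraries. The leading number of the library code was 5 or 6 in all 7, and elsewhere in control bull 2 of period 1 alone. The labels name no batch. Leading numbers were not balanced over the groups: 1 occurred in control bulls of period 1 alone, and 9 in period 2 alone.

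The members together held a mean of 48.2% of gene counts, and 56.7% of the counts of nuclear genes. By group, the share ran from 44.3% through a median of 48.0% to 53.0% in control bulls of period 1, and from 38.1% through 49.0% to 52.6% in control bulls of period 2. In restricted bulls it ran from 45.5% through 49.7% to 53.1% in period 1, and from 43.0% through 46.5% to 51.3% in period 2. The 4 ranges overlapped widely. The group means were 48.0% ± 2.80, 48.1% ± 4.22, 49.5% ± 2.49 and 47.0% ± 2.96 (SD, n = 10 each) in the same order. Followed by bull number, the share was lower in period 2 in 9 of 10 restricted bulls, with a mean difference of -2.52 ± 3.01 percentage points (SD, range -6.63 to 3.36), and in 3 of 10 control bulls, with a mean of 0.065 ± 4.30 (range -7.78 to 4.67). Among bulls with neither library among the 7, it was lower in 7 of 7 restricted bulls (-2.51 ± 2.11) and in 2 of 6 control bulls (-0.23 ± 4.35). These sums over chosen members are given without a test, and the pairing of control bulls by number is unsure. Control bull 7 of period 2 had the lowest share (38.1%), and the 7 libraries with few reads outside genes had 50.4% to 53.0%.

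**Figure D1:**
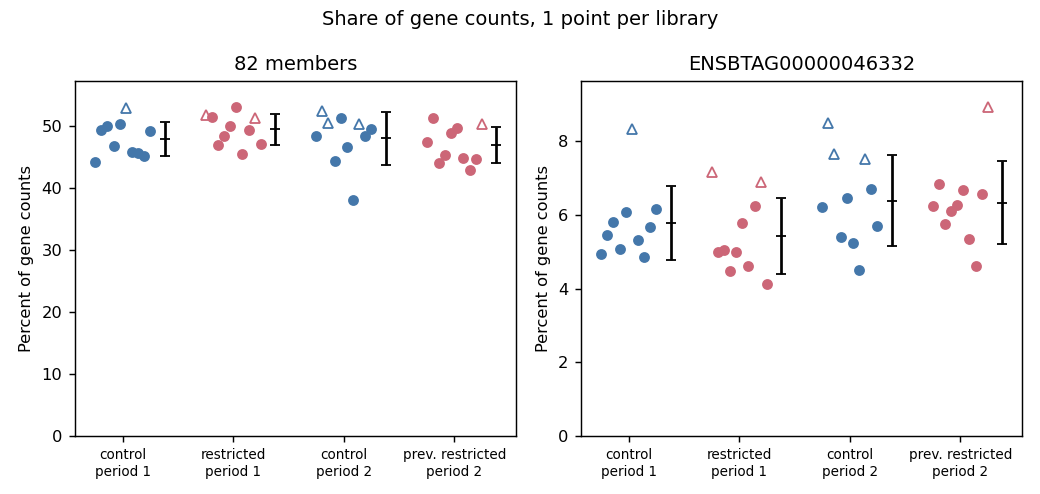
Percent of gene counts held by the 82 members together (left) and by ENSBTAG00000046332 alone (right), 1 point per library, with the mean and SD of each group of 10 as a bar; blue is control, red restricted, and open triangles are the 7 libraries with 10.0% to 11.2% of reads outside genes. The members' shares overlap across the 4 groups, with control bull 7 of period 2 lowest at 38.1%, and for the single gene the 7 triangles lie above the other 33 points.

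Within the set, the reads were unevenly spread. ENSBTAG00000046332 was the first nuclear gene in 40 of 40 libraries, with a mean of 59822 CPM, or 5.98% of gene counts. It was followed by ENSBTAG00000012927 at 25922 CPM and by ENSBTAG00000011424, ENSBTAG00000026986, ENSBTAG00000013921 and ENSBTAG00000018204 at 20885, 20655, 20328 and 19890 CPM. The latter 4 lie within 1000 CPM of each other, and their ranges over libraries overlap. CPM is not corrected for transcript length, so this is an order of reads and not of molecules.

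The top 10 members together took 22.1% of gene counts, the 29 members at 5000 CPM or more 37.0%, and 14 members reached 10000 CPM. In single libraries, between 32 and 119 nuclear genes were needed to reach 50% of the nuclear counts (median 45.5). The members were chosen on the mean over these same libraries, which bears on how far single libraries match the set. The 10 most abundant nuclear genes of a library shared 6 to 10 (median 9) with the 10 leading members, and the 82 most abundant shared 70 to 79 (median 76) with the set. Between 1 and 10 members (median 5) were under 1000 CPM in a given library.

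The limit of 1000 CPM cut through a continuum. The last members inside it were ENSBTAG00000016296, ENSBTAG00000032436 and ENSBTAG00000008394 at 1035, 1013 and 1001 CPM. The first genes outside were ENSBTAG00000001003, ENSBTAG00000015848 and ENSBTAG00000011752 at 999.4, 993 and 981 CPM.

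**Figure D2:**
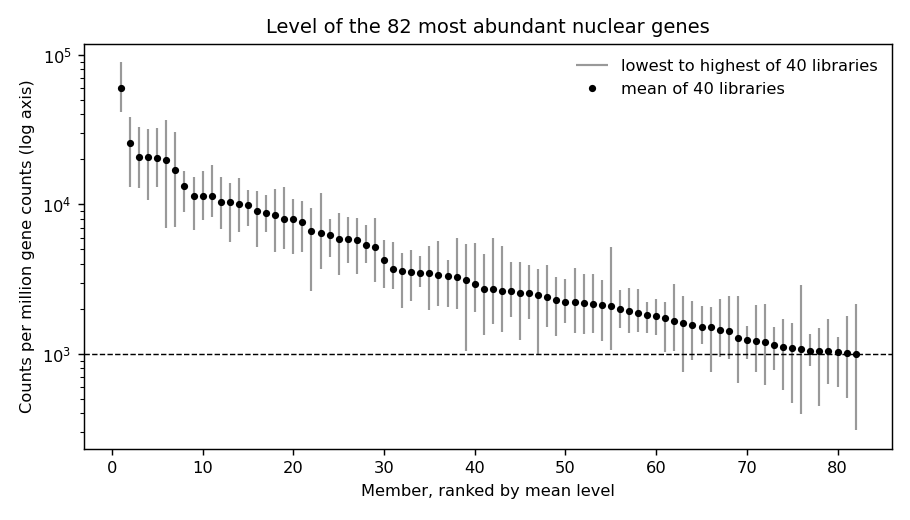
Mean level in CPM (dots, log axis) of the 82 members by rank, with lines from the lowest to the highest of the 40 libraries; the dashed line is 1000 CPM. The first gene stands apart at 59822 CPM, and some members near the limit span a wide range, down to 308 CPM for the last one.

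The leading gene did not follow the feeding groups. ENSBTAG00000046332 was at 48544, 55677 and 83341 CPM (lowest, median, highest) in control bulls of period 1 and at 41358, 50215 and 71664 CPM in restricted bulls of that period. In period 2 it was at 45013, 63408 and 84855 CPM in control bulls and at 46061, 62475 and 89245 CPM in previously restricted bulls. The ranges overlapped throughout, and none of the 5 comparisons described below called it (log2 fold changes -0.03 to 0.17, edgeR adjusted p 0.496 to 0.974). It did follow the 7 libraries with few reads outside genes, in which it held 6.89% to 8.92% of gene counts, against 4.14% to 6.85% in the other 33.

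Variation between libraries of a group, 1 per bull, was described by the CV of the CPM. The mean within-group CV of the members' CPM was 10.3% to 37.5% (median 17.6%), against a median of 25.1% over all tested genes and 17.0% over the 786 genes at 100 to 1000 CPM. In the 33 libraries alone the medians were 14.2% for members and 20.0% for all genes. ENSBTAG00000016296 (10.3%) and ENSBTAG00000033008 (10.4%) varied least. ENSBTAG00000018204, the sixth of the set, varied most at 37.5% (35.1% in the 33 libraries), with lowest, median and highest values of 10414, 21113 and 36601 CPM in control bulls of period 1 and 9532, 21759 and 31239 CPM in restricted bulls. In period 2 the values were 6985, 14674 and 34286 CPM in control and 11796, 21149 and 28942 CPM in previously restricted bulls. All 4 groups overlapped, and no comparison called this gene.

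Part of the spread of log2 CPM was shared by libraries with the same bull number, once group means and a term for the 7 libraries were removed. The share of the within-group variance of log2 CPM that libraries with the same bull number had in common had a median of 28.5% over the members and 15.3% over the 11052 genes with an estimate. It was 50% or more for 14 of the 82 members, against 11.0% of all genes. For 13 members it was at or below 0, a count not made over all genes. The highest values were 79.0% for ENSBTAG00000018071, 75.0% for the variable ENSBTAG00000018204 and 67.2% for ENSBTAG00000005333. These genes were picked for these values, which are therefore given as a description.

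Among the 33 libraries, the first principal component of the members' log2 CPM held 28.5% of their variance and the second 11.3%. Control bull 7 of period 2, the library with the lowest member share, scored 3.48 on the first component, while the other 32 libraries lay between -1.84 and 1.26. Without this library the first component held 23.2%. It is a single animal at a single time, so the counts of the comparisons that use the control group of period 2 are given with and without it.

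The first comparison asks how the members differed late in the restriction. Most of those that differed were higher in restricted bulls: 12 of 82 members (14.6%) were higher and 2 (2.44%) lower, where 4.49% of all tested genes were higher and 5.30% lower (edgeR quasi-likelihood test, Benjamini-Hochberg adjusted p under 0.05 over all 12753 genes). The median log2 fold change was 0.16 over the members and -0.04 over all genes, and called members had a median absolute log2 change of 0.46 (1.38-fold). Without the 7 libraries, 20 members were called (18 higher, 2 lower), or 24.4%, against 16.3% of genes in either direction, and 12 of the 14 were among them. When libraries were scaled by total gene counts, the median over all genes shifted to -0.14 and over members to 0.05, with 12 members higher and 6 lower, so that 66.7% of called members were higher in place of 85.7%. Of all genes, 2.23% were then higher and 8.63% lower.

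ENSBTAG00000019327 changed most. Its lowest, median and highest levels were 1061, 1453 and 1906 CPM in control bulls and 2546, 3375 and 5201 CPM in restricted bulls. All 10 restricted bulls lay above all 10 controls. The means were 1442 ± 254 and 3543 ± 795 CPM (SD, n = 10 each), with a log2 fold change of 1.40 ± 0.14 (SE, edgeR adjusted p = 1.06e-08). It was the sole member past a 2-fold change here.

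ENSBTAG00000011730 had 1370, 1695 and 2110 CPM (lowest, median, highest) in control and 1930, 2608 and 3402 CPM in restricted bulls. All but 1 of the restricted bulls were above every control. The means were 1728 ± 269 and 2616 ± 455 CPM (SD, n = 10), and the fitted log2 difference was 0.70 ± 0.13 (SE, edgeR adjusted p = 0.000466).

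The lower members were fewer and their calls less firm. ENSBTAG00000015214 had 2058, 2592 and 4062 CPM in control and 1593, 1809 and 2616 CPM in restricted bulls, and 8 of 10 restricted bulls were below every control. The fitted log2 difference was -0.45 ± 0.14 (edgeR adjusted p = 0.0365), and the call ended without the 7 libraries, where the value was -0.42 (adjusted p = 0.079), and with no filter on low counts, where it was -0.43 (0.0676). ENSBTAG00000000894 had 1181, 1865 and 2208 CPM in control and 753, 1259 and 1737 CPM in restricted bulls, with overlap between the groups. The fitted log2 difference was -0.43 ± 0.14 (edgeR adjusted p = 0.0351), and the same changes of method ended the call (-0.34 with an adjusted p of 0.0621 without the 7 libraries, and an adjusted p of 0.0614 with no filter).

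A further member, singled out after its values were seen, had groups that did not overlap although the test did not call it. In this comparison all 10 restricted bulls were below all controls for 1 member and 0.376% of tested genes, and above for 1 member and 0.118% of genes. Overlap was judged on CPM, which are scaled by total gene counts, while the fitted values use TMM scaling. The median log2 change over all genes was -0.14 on the former scale and -0.04 on the latter. ENSBTAG00000014583 was between 1231 and 1707 CPM in control bulls and between 694 and 1228 CPM in restricted bulls. The fitted log2 difference was -0.39 ± 0.20 (edgeR adjusted p = 0.219). It was called when the fit held just the groups compared (adjusted p = 0.0363) and without the 7 libraries (0.0416). The gene stood 0.85 higher on the log2 scale in the 7 libraries than in the other 33.

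**Figure D3:**
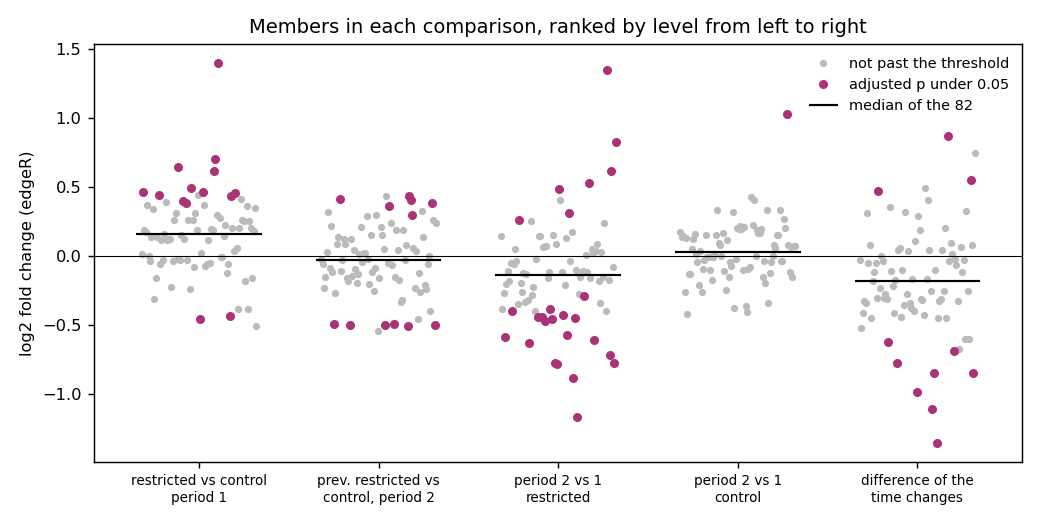
Log2 fold change (edgeR) of each of the 82 members in the 5 comparisons, members ordered by level from left to right within a comparison; purple points passed an adjusted p of 0.05 and the line is the median of the 82. The median is above 0 in period 1 (0.16) and below 0 for the time change in restricted bulls (-0.14), and purple points are nearly absent in the control group over time (1).

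The second comparison asks what differed after 15 days of free feeding. As many members were higher as lower in previously restricted bulls, 6 (7.32%) in each direction, where 3.28% of all genes were higher and 3.92% lower. The higher include ENSBTAG00000013162 and the lower ENSBTAG00000032436. Both passed the limit of 1000 CPM through groups where they were higher, so these counts are description. The changes of called members lay between 0.29 and 0.43 on the log2 scale for the higher and between -0.51 and -0.49 for the lower members, and none reached 2-fold. The medians over the members and over all genes were both -0.03.

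These counts moved with the libraries used. Without the 7 libraries, 7 members (8.54%) were called, 5 higher and 2 lower, against 6.63% of genes. Without control bull 7 of period 2, 3 were higher and 9 lower, where 3.38% of genes were higher and 3.94% lower. With scaling by total counts 4 were higher and 9 lower, so that 30.8% of called members were higher in place of 50%, and of all genes 1.59% were higher and 4.62% lower.

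ENSBTAG00000009707, the fourteenth of the set, was higher in previously restricted bulls. It had 6508, 9680 and 11117 CPM (lowest, median, highest) in control and 8412, 11713 and 15097 CPM in previously restricted bulls, of which 6 lay above every control. The fitted log2 difference was 0.41 ± 0.09 (SE, n = 10 per group, edgeR adjusted p = 0.00584).

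ENSBTAG00000006999 was lower, with 4790, 8421 and 10003 CPM in control and 4932, 5437 and 7331 CPM in previously restricted bulls. The ranges overlap, and the lowest control library, bull 7, was below every previously restricted one. The fitted log2 difference was -0.50 ± 0.14 (edgeR adjusted p = 0.0209), and -0.33 without the 7 libraries (adjusted p = 0.198), where the call ended, as it did with the library code factor (0.0789) and with just the groups compared (0.0725). Without control bull 7 the value was -0.59 (adjusted p = 0.00129). ENSBTAG00000018598 had 1461, 2016 and 2916 CPM in control and 1115, 1413 and 1967 CPM in previously restricted bulls, 6 of which were below every control. The fitted log2 difference was -0.51 ± 0.14 (edgeR adjusted p = 0.024), and the call ended without the 7 libraries, where the value was -0.46 (adjusted p = 0.0781).

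The comparisons of period 1 and period 2 use different libraries of the same bulls. Of the 14 members called in period 1 and the 12 called in period 2, 3 were in both lists (2 of 20 and 7 without the 7 libraries), and of all genes 162 of 1249 and 918 were. ENSBTAG00000013315, singled out for this, was higher in both. It had 1069, 1480 and 1666 CPM in control and 1472, 1727 and 2255 CPM in restricted bulls of period 1, and 905, 1354 and 1514 against 1365, 1718 and 2000 CPM in period 2. In period 1, 7 restricted bulls lay above every control, and in period 2, 8 did. The log2 fold changes were 0.44 ± 0.09 (edgeR adjusted p = 0.00108) and 0.40 ± 0.09 (0.00456), and these calls held under every alternative fit that was run on them.

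The other members in both lists changed direction. ENSBTAG00000009663 was higher in restricted bulls of period 1, at 2202, 2773 and 3411 CPM against 1606, 1981 and 2415 CPM in controls. It was lower in period 2, at 1364, 1619 and 2160 CPM against 1531, 2241 and 3008 CPM. The log2 fold changes were 0.62 ± 0.12 (edgeR adjusted p = 0.000467) and -0.49 ± 0.11 (0.00754). ENSBTAG00000000894, lower in period 1, was higher in period 2, at 1380, 1842 and 2444 CPM against 992, 1505 and 1948 CPM in controls. Its log2 fold change there was 0.43 ± 0.14 (edgeR adjusted p = 0.0432), a call that ended without the 7 libraries (0.36, adjusted p = 0.089), without control bull 7 of period 2 (0.38, adjusted p = 0.0684) and under 4 other alternatives, with a range of 0.021 to 0.0993.

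The third comparison follows the restricted bulls from day 120 of restriction to day 15 of free feeding. It shares its period 1 libraries with the first comparison and its period 2 libraries with the second, so the results are not independent of them. Of the 82 members, 19 (23.2%) fell and 7 (8.54%) rose, where 9.35% of all genes fell and 9.81% rose. Those that fell include ENSBTAG00000032436 and ENSBTAG00000014930. Those that rose include ENSBTAG00000000434, ENSBTAG00000008394 and ENSBTAG00000013162. These members passed the limit of 1000 CPM through groups where they were higher, so both counts are description. The median log2 change was -0.14 over the members and 0.01 over all genes (-0.06 and 0.10 with scaling by total counts). Without the 7 libraries, 31 members (37.8%) changed, 23 down and 8 up, against 27.8% of genes, and 25 of the 26 were among them.

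ENSBTAG00000019327 and ENSBTAG00000009663 fell most, in 10 of 10 bulls each. The former went from 2546, 3375 and 5201 CPM (lowest, median, highest) to 1132, 1590 and 2284 CPM, with no overlap between the times. Its log2 change was -1.16 ± 0.14 (SE, edgeR adjusted p = 2.2e-07). The latter went from 2202, 2773 and 3411 CPM to 1364, 1619 and 2160 CPM, also without overlap, with a log2 change of -0.88 ± 0.12 (edgeR adjusted p = 7.96e-07).

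ENSBTAG00000000434 and ENSBTAG00000008394, both near the limit of 1000 CPM, rose most. Their means in restricted bulls were 540 and 664 CPM in period 1, and 1452 and 1256 CPM in period 2. Both passed the limit through groups where they were higher, so their rises are given as description. ENSBTAG00000000434 went from 395, 550 and 700 CPM to 787, 1270 and 2869 CPM, higher in 10 of 10 bulls and without overlap between the times. The log2 change was 1.35 ± 0.19 (edgeR adjusted p = 2.16e-06). ENSBTAG00000008394 went from 308, 662 and 1332 CPM to 609, 1212 and 2149 CPM, with overlap, and was higher in 9 of 10 bulls. Its log2 change was 0.82 ± 0.22 (edgeR adjusted p = 0.00735). It stood 0.83 higher on the log2 scale in the 7 libraries, and its change without them was 1.04 (adjusted p = 0.000179).

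Counting over the set, 2 members rose and 5 fell with no overlap between the 10 libraries of each time, as did 1.06% and 0.337% of all tested genes. The 2 that rose, ENSBTAG00000000434 and ENSBTAG00000013162, passed the limit through the period in which they were higher. Among those that fell, ENSBTAG00000032436 did likewise (mean 1204 CPM in period 1 and 751 CPM in period 2), so both counts are description. Of members described above, ENSBTAG00000006999 fell in 10 of 10 bulls, with a log2 change of -0.63 ± 0.14 (edgeR adjusted p = 0.000898). ENSBTAG00000000894 rose in 10 of 10 bulls, by 0.53 ± 0.14 on the log2 scale (edgeR adjusted p = 0.00499). ENSBTAG00000009707 rose in 7 of 10 bulls, by 0.26 ± 0.09 (edgeR adjusted p = 0.0425), and with a block for each bull the adjusted p was 0.0766. ENSBTAG00000015214 rose by 0.49 ± 0.14 (edgeR adjusted p = 0.0138), and with the block the adjusted p was 0.0518.

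The fourth comparison follows the control bulls over the same interval, in which their feeding did not change. A single member (1.22%) was higher in period 2 and none was lower by edgeR, where 0.0392% of all genes were higher and 0% lower. That member passed the limit of 1000 CPM through its period 2 levels, so this count is description. By edgeR, 10 members were at an unadjusted p under 0.05, 5 of them lower, and of all genes 19.1% were. DESeq2 likewise called 1 member higher and none lower, with 113 genes called in all against 5 by edgeR. Without the 7 libraries the count was again 1, against 0.696% of genes, and without control bull 7 of period 2 it was 1, against 0.0157% of genes. The median log2 change of the members was 0.03, and 0.11 without that library.

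The member was ENSBTAG00000000434, which also rose in restricted bulls. In control bulls it went from 633, 763 and 929 CPM to 838, 1512 and 2824 CPM, higher in 9 of 10 bulls and with overlap between the times. The log2 change was 1.02 ± 0.19 (SE, n = 10 per time, edgeR adjusted p = 0.0151). In a fit with a factor for the leading number of each library code, the value was 1.05 and the adjusted p 0.0753. The time changes in the feeding groups differed by 0.32 ± 0.26 on the log2 scale (edgeR adjusted p = 0.488), so no difference between them was shown.

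The last comparison tests whether the change over time differed between the feeding groups (the interaction, restricted minus control). It was more negative in restricted bulls for 8 members (9.76%) and more positive for 3 (3.66%), where 3.35% of all genes were called negative and 3.02% positive. The negative include ENSBTAG00000032436 and the positive ENSBTAG00000013162. Both passed the limit of 1000 CPM through groups where they were higher, so these counts are description. The median over members was -0.18, against 0.02 over all genes, and called members had a median absolute value of 0.84. Without the 7 libraries, 9 members (11.0%) were called, 6 negative and 3 positive, against 5.38% of genes, and 6 of the 11 were among them. Without control bull 7 of period 2, 17 were called, 15 negative and 2 positive, where 4.64% of genes were negative and 3.81% positive.

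ENSBTAG00000019327 had the lowest interaction, -1.35 ± 0.20 (SE, edgeR adjusted p = 3.8e-05), next to a change in control bulls of 0.19 ± 0.14 (adjusted p = 0.404), where 6 of 10 bulls were higher in period 2. In period 2 the gene no longer stood apart, at 1132, 1590 and 2284 CPM in previously restricted and 1225, 1516 and 2453 CPM in control bulls, a log2 difference of 0.05 ± 0.14 (edgeR adjusted p = 0.877). ENSBTAG00000009663 had an interaction of -1.11 ± 0.16 (edgeR adjusted p = 4.18e-05). Both calls held under every alternative fit that was run on them.

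ENSBTAG00000011730 had an interaction of -0.85 ± 0.18 (edgeR adjusted p = 0.00333). It fell in 9 of 10 restricted bulls, from 1930, 2608 and 3402 CPM to 1735, 2069 and 2428 CPM, by 0.44 ± 0.13 on the log2 scale (adjusted p = 0.013). In control bulls it went from 1370, 1695 and 2110 CPM to 1592, 2479 and 2721 CPM, a log2 change of 0.40 ± 0.13 that the test did not call (adjusted p = 0.148).

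The positive interactions were those of ENSBTAG00000000894, at 0.86 ± 0.19 (edgeR adjusted p = 0.00398), ENSBTAG00000013162, at 0.55 ± 0.17 (0.0448), and ENSBTAG00000009707, at 0.47 ± 0.13 (0.0215). ENSBTAG00000000894 rose in all 10 restricted bulls and was higher in period 2 in 2 of 10 control bulls, and this call held under every alternative. ENSBTAG00000013162 rose without overlap in restricted bulls, from 628, 854 and 973 CPM to 1047, 1303 and 1706 CPM (log2 change 0.61 ± 0.12, adjusted p = 0.000308). Its mean was 1326 CPM in restricted bulls of period 2 and 821, 980 and 1029 CPM in the other groups. It thus passed the limit of 1000 CPM through the group in which it was highest. In control bulls it was at 630, 939 and 1377 CPM and then at 733, 1071 and 1390 CPM. Its interaction lost the call under 7 alternatives, with an adjusted p of 0.148 without the 7 libraries, and that of ENSBTAG00000009707 under 1 (0.0978 without the 7 libraries).

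**Figure D4:**
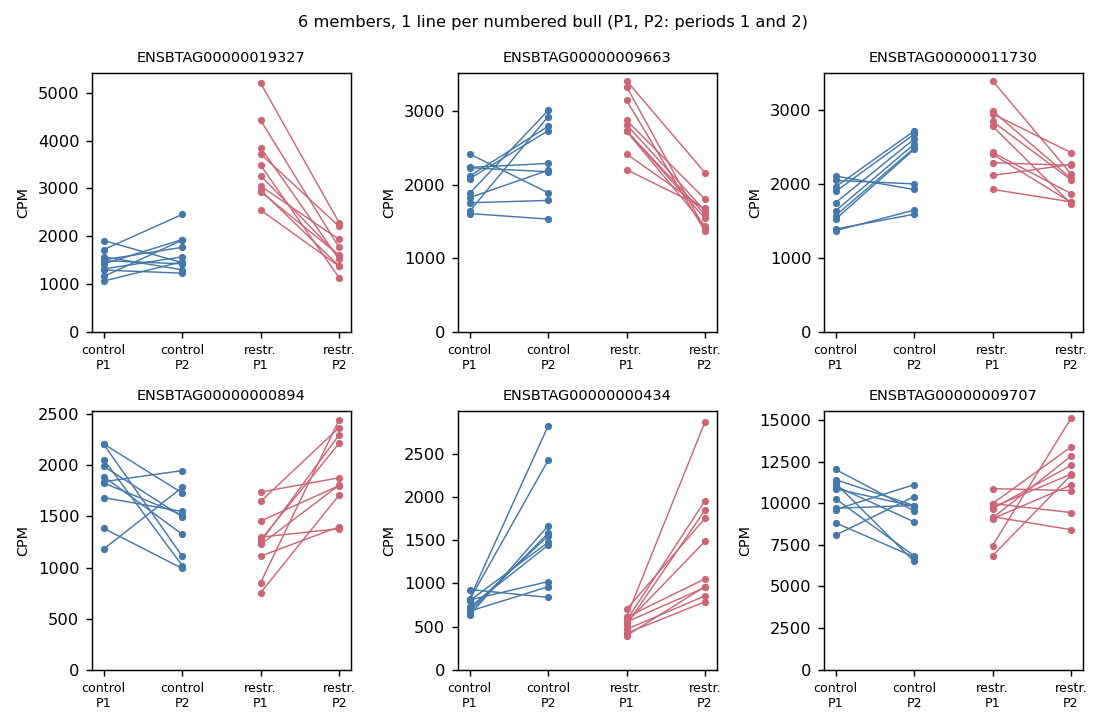
Levels in CPM (axes start at 0) of 6 members, 1 line per numbered bull from period 1 to period 2, control bulls in blue and restricted bulls in red. ENSBTAG00000019327 and ENSBTAG00000009663 fall in every restricted bull (10 of 10), and ENSBTAG00000000434 rises in nearly all bulls of both groups (10 of 10 restricted, 9 of 10 control).

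Across the 5 comparisons, 34 of the 82 members (41.5%) were called at least once and 48 never, where 27.2% of all tested genes were called at least once. The 34 include the members that passed the limit through groups where they were higher, so this count is description. Without the 7 libraries, 39 members (47.6%) and 37.8% of genes were. Of the 15 members of highest mean level, 2 were higher and 0 lower in period 1, and 1 was higher and 1 lower in period 2. Over time, 1 rose and 2 fell in restricted bulls and 0 in control bulls, and 1 had a called interaction, so that 6 of the 15 were called at least once, as were 6 without the 7 libraries. The second gene of the set, ENSBTAG00000012927, was higher in restricted bulls of period 1 by 0.47 ± 0.15 on the log2 scale (edgeR adjusted p = 0.0433).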

How the data were processed

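The authors deposited whole-number read counts per gene for each library, and the analysis used these counts. Per the submitters' processing notes, the tools were TopHat, HTSeq, edgeR and CASAVA 1.4, with the assembly UMD3.1; what each was used for is not given in the sources used here. The authors' normalised values were not used here. Lines naming no gene entered neither library sizes nor tests (reads outside genes 10.0% to 18.7%, ambiguous 0.584% to 1.40% of a library), as were 92 spike-in entries, all at 0. Whether counts separate near-identical genes, and counting by strand, is not stated, so members with close copies are uncertain.

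Log2 fold changes and adjusted p-values came from edgeR 4.0.16 in R 4.3.3: TMM scaling, filterByExpr (minimum count 10, total 15), 1 quasi-likelihood fit to all 40 libraries with 4 group means and no covariate, Benjamini-Hochberg adjustment over all 12753 genes. The method was tested on simulated data. DESeq2 1.42.0, limma 3.58.1 with voom, other scalings and filters, a term for or removal of the 7 libraries, a library code factor and a bull block were alternatives. Removing control bull 7 of period 2 was chosen after seeing the data. Libraries of a group differed by more than sampling noise (lowest chi-square per gene for any pair 22.8), so each counts as 1.

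The labels' title numbers repeat across the times, and were taken as 10 bulls in each feeding group. One label text gives 20 bulls in all, another 20 per group. Deviations of same-numbered libraries, with a term for the 7 libraries, correlated at 0.195 to 0.421 in the restricted group (10 of 10 pairs above 0.1) and at 0.096 to 0.438 in the control group (9 of 10), so the pairing is less sure there.

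Members and lists were chosen with earlier results of these data known. Members named are those of highest level, those of largest change in each comparison (at most 2 identifiers up and 2 down, since identifiers could not be named) and those at the limit. Those said to be singled out, or to have passed the limit through groups where they were higher, are named as well. Lists by gene symbol, for roles, fibre types and cell types, could not be applied.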

Additional observations from a re-analysis of the deposited data

Results flagged for a closer look

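In 4 of 52 checked groups of 10 libraries, the highest library stood apart from the rest by more than Dixon's 95% critical value, and chance alone gives about 1 in 20. For ENSBTAG00000046332 these were control bull 6 of period 1 at 83341 CPM and restricted bull 10 of period 2 at 89245 CPM, both among the 7 libraries with few reads outside genes. For ENSBTAG00000015214 they were control bull 7 of period 2 at 6002 CPM and restricted bull 8 of period 1 at 2616 CPM.

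The 4 members listed here were picked as the called members of largest interaction in each direction, so that all 4 were called was fixed in advance. Over the set, 11 of 82 members (13.4%) had a called interaction, as had 812 of 12753 genes. The 11 include ENSBTAG00000032436 and ENSBTAG00000013162, which passed the limit of 1000 CPM through groups where they were higher. The call of ENSBTAG00000013162 ended under several alternatives, as given above. The log2 values were -1.35 for ENSBTAG00000019327, -1.11 for ENSBTAG00000009663, 0.86 for ENSBTAG00000000894 and 0.55 for ENSBTAG00000013162.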

How the results depend on the processing

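The count of called members in period 1, 14, became 23 with a term for the 7 libraries, 22 with a factor for the leading number of each library code and 22 with just the groups compared. The term and the factor overlap, since all 7 libraries had the leading number 5 or 6. The period 2 count, 12, became 7 without the 7 libraries. The single call over time in control bulls became 0 with the code factor (11 members at an unadjusted p under 0.05 by edgeR). The interaction count, 11, became 17 without control bull 7 of period 2, chosen after seeing the data. The causes of these moves were not tested. The members' share of 48.2% became 56.7% over nuclear counts and 53.1% with genes at 500 CPM or more. With a replicate block for each bull, the counts were 25 (4 up, 21 down) in place of 26 over time in restricted bulls, 1 in control bulls and 10 in place of 11 for the interaction. The block together with the term for the 7 libraries gave 37, 1 and 15, and bull as a random effect left 14 and 12 in the comparisons within a period. Apart from the calls given with the block above, it ended none of the calls of the 11 members named for size of change. Of 226 alternative values for 17 results of those members, 204 kept their call, 22 kept the direction but not the call, and 0 reversed, and 10 results kept the call in every alternative. A correlation of members with a slow-fibre gene was not run, because identifiers could not be named. Counting error adds little to the spread of these results, since no member had under 7025 counts. Spread between animals and between library preparations cannot be told apart, with 1 library per bull and time.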
